A study of Homo sapiens with 8 samples.

Results

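Collagen genes were followed by RNA sequencing in fresh and frozen mesenchymal stromal cells that had been made from H9, a human embryonic stem cell line. The genes were those whose symbol has the form COL, a type number, A and a chain number, with at least 100 counts summed over the 8 libraries. Of 43 matching genes, 37 met this minimum, out of 23354 genes in all, and 37 of the 37 passed the filter on low counts. The minimum left out COL6A5 and COL19A1 with 0 counts, COL6A6 with 12, COL23A1 with 22, COL9A1 with 68 and COL10A1 with 74, while COL20A1 with 108 lay just inside it. By class, 11 were fibrillar, 8 were FACIT collagens, which attach to fibrils, 6 were basement membrane chains, and 3 formed beaded filaments. The others were 2 network collagens, 1 anchoring fibril collagen, 2 multiplexins, 3 transmembrane collagens and COL28A1.

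Collagens are extracellular proteins of several chains wound into a triple helix, and the chains of one type often come from different genes. Fibrillar collagens give tissue its tensile strength, basement membrane collagens form sheets under cell layers, and type VI collagen forms beaded filaments around cells. Stromal cells of connective tissue are a main source of type I, III, V and VI collagen.

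Cells were grown on gelatin-coated flasks in medium with serum. The osmolyte-frozen libraries came from cells in solutions labelled SMC (2 h), SGC (1 h) and SGI (1 h), cooled at 3 °C per min, and the DMSO-frozen libraries from cells held for 1 h or 0 h and cooled at 1 °C per min. The 3 fresh libraries came from unfrozen cells at 0 h, cells given DMSO for 1 h and cells kept in medium for 1 h. Solution and cooling rate went together, and holding time was 1 or 2 h in osmolyte-frozen and 0 or 1 h in DMSO-frozen cells. No unfrozen library with SMC, SGC or SGI was analysed here, and 1 of 3 fresh libraries had DMSO, so these factors cannot be told apart. There was 1 library per condition and no label tells separate cultures apart, so p-values measure only the spread between these libraries. Within a group that spread takes in differences of solution, time or DMSO, and the rest of it may be technical. Values per library are given in the order SMC, SGC and SGI, then DMSO 1 h and 0 h, then fresh 0 h, fresh 1 h DMSO and fresh 1 h medium.

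Counts summed to between 41198716 and 51166666 per library. Of 7 mesenchymal stromal markers 7 were detected, at a summed level of 3897 to 4101 CPM (the rate of counts per library, with library sizes scaled by TMM) in osmolyte-frozen, 4372 to 4495 CPM in DMSO-frozen and 4817 to 5206 CPM in fresh libraries. VIM was the largest part of this sum, and its osmolyte-frozen mean lay between those of the other groups. NT5E, ENG, PDGFRB, CD44 and ALCAM had lower means in osmolyte-frozen than in both other groups, and only THY1 had a higher one. THY1 averaged 285 CPM in osmolyte-frozen, 240 CPM in DMSO-frozen and 244 CPM in fresh cells, and CD44 averaged 268, 480 and 555 CPM. The 4 smooth muscle markers, ACTA2, CNN1, MYH11 and DES, summed to 256 to 290 CPM in osmolyte-frozen, 109 to 115 CPM in DMSO-frozen and 81.5 to 85.0 CPM in fresh libraries. Most of that sum was ACTA2 and CNN1. DES went the other way, at means of 0.139 CPM in osmolyte-frozen, 0.269 CPM in DMSO-frozen and 0.308 CPM in fresh cells. The 5 pluripotent markers summed to 9.59 to 12.4 CPM in osmolyte-frozen, 6.34 to 6.47 CPM in DMSO-frozen and 6.82 to 7.96 CPM in fresh libraries, most of it POU5F1 and DPPA4, with SOX2 at no more than 0.0895 CPM. The 4 chondrocyte markers summed to 27.8 to 31.2 CPM in osmolyte-frozen, 32.8 to 33.0 CPM in DMSO-frozen and 32.8 to 34.9 CPM in fresh libraries, most of it SOX9 and MATN3, with ACAN at no more than 0.0895 CPM. The 4 osteoblast markers summed to 0.587 to 0.827 CPM in osmolyte-frozen, 0.355 to 0.481 CPM in DMSO-frozen and 0.227 to 0.388 CPM in fresh libraries, with IBSP at 0 in all 8. Counts came to 64.0 to 66.9% of the library total used for the RPKM values in osmolyte-frozen, 72.1 to 73.0% in DMSO-frozen and 66.2 to 70.4% in fresh libraries. Nuclear MALAT1 and NEAT1 RNA together held 0.846 to 0.948% of counts in osmolyte-frozen, 0.393 to 0.452% in DMSO-frozen and 0.472 to 0.567% in fresh libraries. These measures moved with the same libraries as the collagen differences below, and their part in those differences was not tested.

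Collagen genes took a large share of all counts. The share was 10.9, 9.32 and 8.89% in osmolyte-frozen libraries, 9.85 and 8.62% in DMSO-frozen libraries and 8.77, 8.12 and 8.04% in fresh libraries. The means were 9.69% ± 1.04 in osmolyte-frozen (SD, n = 3), 9.23% ± 0.872 in DMSO-frozen (SD, n = 2) and 8.31% ± 0.402 in fresh cells (SD, n = 3), with overlap between osmolyte-frozen and DMSO-frozen libraries. The osmolyte-frozen libraries, the lowest at 8.89%, all lay above the fresh ones, the highest of which was 8.77%. With TMM-scaled library sizes the groups overlapped, since the share was 8.35% in the SGI library and 8.88% in fresh 0 h. COL1A1 and COL1A2, the chains of type I collagen, made up 62.5 to 66.4% of the collagen counts.

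Levels spanned several orders of magnitude. By the authors' RPKM, which divides by gene length, the mean over libraries ran from 0.0507 for COL20A1 to 3892 for COL1A1, with COL1A2 next at 3053 and COL3A1 at 796.6 RPKM. The beaded filament chains COL6A2 and COL6A1 followed at 529 and 503.5 RPKM, then COL5A2 at 420.3, COL5A1 at 340.4, COL4A1 at 255 and COL4A2 at 242 RPKM. In all, 10 of 37 genes averaged at least 100 RPKM and 14 averaged under 1 RPKM. The cartilage collagen gene COL2A1 averaged 1.69 RPKM.

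**Figure D1:**
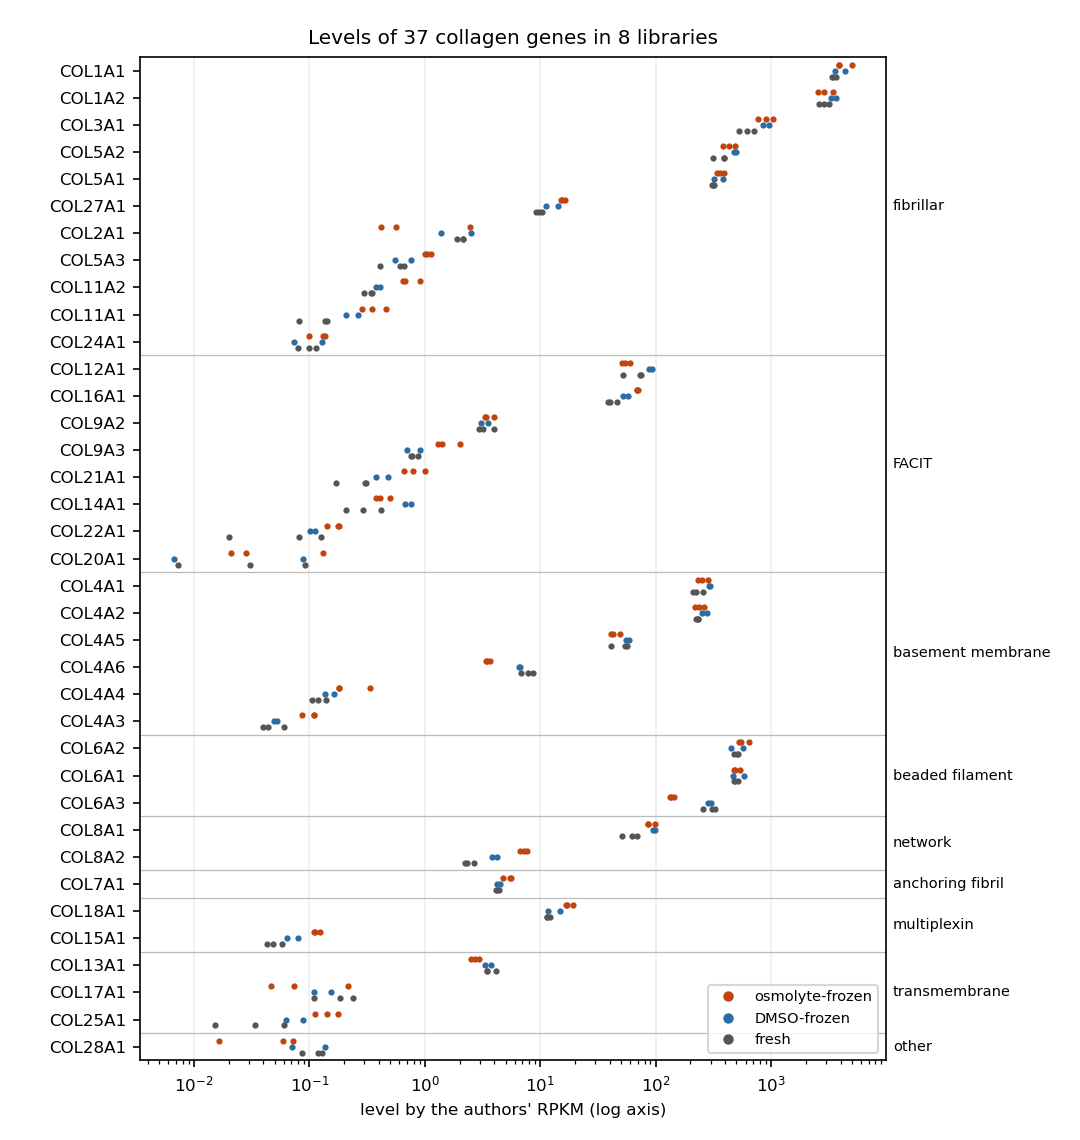
Each dot is the level of 1 collagen gene in 1 library, by the authors' RPKM on a log axis, with genes grouped by class and colours for osmolyte-frozen, DMSO-frozen and fresh libraries. COL1A1 and COL1A2 lie at the top of the range, at 3892 and 3053 RPKM on average, and COL20A1 lies lowest at 0.0507 RPKM.

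Promoter sequences from RefSeq (GRCh38.p14) were held for 26 of the 37 genes, and 5 stretches are shown, 1 between the neighbouring genes COL4A1 and COL4A2 and 4 before genes picked after their values were seen, COL8A2 and COL16A1 as higher and COL6A3 and COL4A6 as lower in osmolyte-frozen cells than in both other groups. COL4A1 and COL4A2 are transcribed away from each other, and the 126 bases between their starts (chr13:110307158-110307283, plus strand) lie between both genes. The 4 others are the 250 bases before the start, each on the minus strand, of COL8A2 (chr1:36125223-36125472), COL16A1 (chr1:31704018-31704267), COL6A3 (chr2:237414165-237414414) and COL4A6 (chrX:108439459-108439708). The COL4A6 stretch lies within the 379 bases between the starts of COL4A6 and COL4A5, and in RefSeq there are also 418 bases between the starts of COL4A3 and COL4A4. Capitals mark GGGCGG and CCAAT on either strand, where neighbouring matches may overlap.
COL4A1 and COL4A2: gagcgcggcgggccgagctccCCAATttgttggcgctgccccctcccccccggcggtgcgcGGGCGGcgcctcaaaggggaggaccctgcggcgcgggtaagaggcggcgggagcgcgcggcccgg
COL8A2: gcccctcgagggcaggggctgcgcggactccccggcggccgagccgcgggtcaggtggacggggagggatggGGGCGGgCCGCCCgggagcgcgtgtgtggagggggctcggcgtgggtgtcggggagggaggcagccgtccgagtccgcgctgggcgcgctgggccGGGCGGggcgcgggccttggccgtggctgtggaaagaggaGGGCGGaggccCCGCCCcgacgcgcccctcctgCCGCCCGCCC
COL16A1: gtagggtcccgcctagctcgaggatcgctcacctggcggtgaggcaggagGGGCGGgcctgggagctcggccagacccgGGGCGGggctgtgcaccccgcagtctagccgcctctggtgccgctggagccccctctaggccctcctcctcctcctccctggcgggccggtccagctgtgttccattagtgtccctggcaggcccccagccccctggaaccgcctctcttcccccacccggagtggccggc
COL6A3: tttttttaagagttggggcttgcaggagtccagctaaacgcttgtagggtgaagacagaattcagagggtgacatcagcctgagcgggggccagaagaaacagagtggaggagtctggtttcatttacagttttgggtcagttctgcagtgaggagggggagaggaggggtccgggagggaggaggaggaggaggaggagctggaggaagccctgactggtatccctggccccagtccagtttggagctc
COL4A6: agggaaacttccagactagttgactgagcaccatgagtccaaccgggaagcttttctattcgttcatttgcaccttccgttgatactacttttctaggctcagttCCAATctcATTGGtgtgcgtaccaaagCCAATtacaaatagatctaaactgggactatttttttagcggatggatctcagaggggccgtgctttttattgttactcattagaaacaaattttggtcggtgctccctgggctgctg
The COL8A2 stretch held 7 matches to GGGCGG and was 82% G or C, and that of COL16A1 held 2 matches at 73.2% G or C. That of COL6A3 held 0 matches to either motif at 56% G or C, and that of COL4A6 held 3 matches to CCAAT at 44% G or C. Other called genes followed the split among these 4 only in part. Of those higher against both groups, COL18A1, COL7A1, COL11A1, COL27A1, COL4A3 and COL5A3 held 9, 3, 3, 2, 2 and 1 matches to GGGCGG. They were 88.4, 60.8, 68.8, 64.4, 66.4 and 66% G or C. COL4A4, also higher, held 0 matches at 72.8%. COL11A2 and COL21A1, higher against both groups, held 0 and 1 matches to GGGCGG at 57.2 and 56.8% G or C. COL12A1, lower against DMSO-frozen cells, held 1 match at 61.2%. A link between promoter sequence and these changes was not tested. Over the 250 bases before the start, GGGCGG was found in 16 of 26 collagen promoters and 42.6% of 35116 promoters, CCAAT in 8 of 26 and 32%, and TATAAA in 4 of 26 and 10.7%. The files' coordinates below are of another build, hg19.

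Osmolyte-frozen cells were set against DMSO-frozen cells to ask how expression after freezing differs between these groups. The groups differ in solution, cooling rate and holding time. Of 37 collagen genes, 12 rose and 4 fell, or 16 in all, where 30.1% of all genes tested passed, 13.6% higher and 16.5% lower. The median log2 change was 0.22 over the collagen genes and 0.04 over all 15564 genes tested. The test here and below is edgeR's quasi-likelihood test with Benjamini-Hochberg adjustment over all genes, called at 0.05. Without the 0 h DMSO-frozen library 6 were called, 3 higher (COL8A2, COL11A2 and COL9A3) and 3 lower (COL6A3, COL12A1 and COL4A6), where the spread of the 1 DMSO-frozen library left was taken from the other groups. In that fit 2136 of all genes were called, against 4684 with all libraries. Without DMSO 0 h the log2 changes of COL27A1, COL5A3 and COL18A1 were 0.23, 0.58 and 0.34. Without DMSO 1 h they were larger, at 0.59, 1.06 and 0.69. COL4A3 and COL4A4 went the other way, at 1.13 and 0.85 without 0 h and 1.07 and 0.61 without 1 h. With library totals in place of TMM scaling, 13 rose and 4 fell. Over all genes 2571 were then higher and 1985 lower, against 2121 and 2563 with TMM scaling.

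Osmolyte-frozen cells were next set against fresh cells. Of 37 collagen genes, 20 rose and 3 fell, or 23 in all, where 40.1% of all genes tested passed, 19.1% higher and 21% lower. The median log2 change was 0.38 over the collagen genes and 0.02 over all genes. This comparison uses the same osmolyte-frozen libraries as the one before it.

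For DMSO-frozen against fresh cells, 3 of 37 collagen genes rose and 0 fell, where 1.87% of all genes passed, 1.25% higher and 0.617% lower. They were both network collagens, COL8A1 and COL8A2, and the FACIT collagen COL14A1. The median log2 change was 0.14 over the collagen genes and -0.01 over all genes. Without the 1 h DMSO-frozen library only COL8A2 was called, and DESeq2 called 7. Over all genes those fits called 91 and 488, against 291. In bulk RNA, fewer cells of a type and less RNA per cell cannot be told apart, which holds for every level below.

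**Figure D2:**
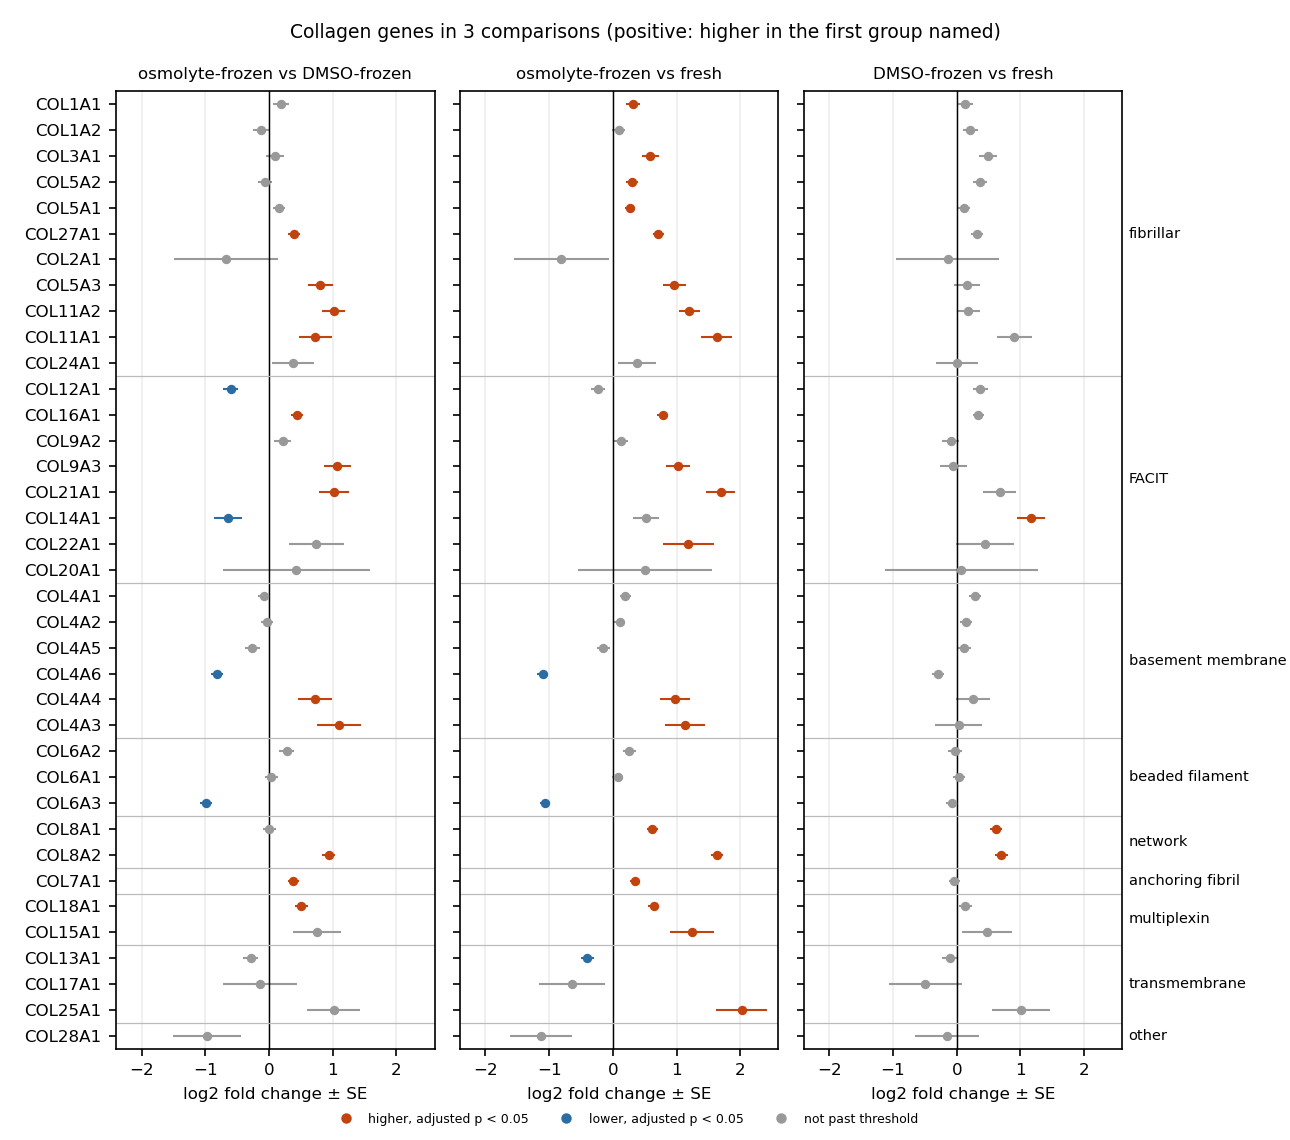
Dots are log2 fold changes of 37 collagen genes and bars are ± SE from the edgeR fit, in 3 comparisons, with positive values higher in the group named before "vs" and genes grouped by class. In osmolyte-frozen against DMSO-frozen cells 12 genes are higher and 4 lower, against fresh cells 20 and 3, and in DMSO-frozen against fresh cells 3 are higher.

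The fibrillar class held the most abundant genes, and none of its 11 members fell. Against DMSO-frozen cells 4 of 11 rose in osmolyte-frozen cells, namely COL27A1, COL5A3, COL11A2 and COL11A1. Over all genes tested 13.6% were higher and 16.5% lower in that comparison. Against fresh cells 8 of 11 rose, where 19.1% of all genes were higher and 21% lower. COL1A1, the main chain of type I collagen, stood at 45295, 35073 and 33393 CPM in osmolyte-frozen, 36736 and 29611 CPM in DMSO-frozen and 31687, 28921 and 30321 CPM in fresh libraries. SMC was the highest library, and the osmolyte-frozen values overlapped the DMSO-frozen ones but not the fresh ones. Against fresh cells the log2 change was 0.32 (SE 0.11, edgeR adjusted p = 0.0286), and against DMSO-frozen cells 0.19 (SE 0.12, edgeR adjusted p = 0.252). The call against fresh cells was lost without SMC, at a log2 change of 0.18 and an edgeR adjusted p of 0.144. It was also lost without fresh 0 h (log2 0.34, edgeR adjusted p = 0.0592), fresh 1 h DMSO (0.29, 0.0959) or fresh 1 h medium (0.32, 0.0701). COL1A2, the partner chain, averaged 24188 ± 4192 CPM in osmolyte-frozen (SD, n = 3), 26404 ± 2349 CPM in DMSO-frozen (SD, n = 2) and 22738 ± 1881 CPM in fresh cells (SD, n = 3). It was called in none of the 3 comparisons, with log2 changes of -0.13 (SE 0.12), 0.09 (SE 0.11) and 0.22 (SE 0.12).

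COL3A1, which forms type III collagen, had 8652, 7641 and 6151 CPM in osmolyte-frozen, 7482 and 6520 CPM in DMSO-frozen and 5750, 4803 and 4355 CPM in fresh libraries. All 5 frozen libraries lay above all 3 fresh ones. It rose 1.51-fold in osmolyte-frozen against fresh cells (log2 0.59, SE 0.13, edgeR adjusted p = 0.00452), while DMSO-frozen against fresh gave a log2 change of 0.49 (SE 0.15, edgeR adjusted p = 0.151). COL5A1 and COL5A2 encode chains of type V collagen, which helps to set fibril width. COL5A1 had 5034, 4645 and 4228 CPM in osmolyte-frozen, 4529 and 3778 CPM in DMSO-frozen and 3913, 3714 and 3890 CPM in fresh libraries. COL5A2 had 5167, 4586 and 3858 CPM in osmolyte-frozen, 4885 and 4599 CPM in DMSO-frozen and 3965, 3799 and 3277 CPM in fresh libraries. For COL5A1 the osmolyte-frozen libraries lay above the fresh ones, and for COL5A2 the SGI library lay below fresh 0 h. Both rose against fresh cells, COL5A1 by 0.27 on the log2 scale (SE 0.08, edgeR adjusted p = 0.0136) and COL5A2 by 0.30 (SE 0.10, edgeR adjusted p = 0.0215). Without SMC neither was called (log2 0.21 with an edgeR adjusted p of 0.0669 for COL5A1, and 0.20 with 0.108 for COL5A2). The COL5A1 call was also lost without fresh 1 h DMSO (log2 0.25, edgeR adjusted p = 0.0692). The COL5A2 call was lost without SGC (0.30, 0.0598) or fresh 1 h medium (0.22, 0.0849).

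COL27A1, a fibrillar collagen of cartilage, had 133, 128 and 133 CPM in osmolyte-frozen, 112 and 87.6 CPM in DMSO-frozen and 85.1, 73.2 and 81.8 CPM in fresh libraries. The 3 groups did not overlap. It rose 1.32-fold against DMSO-frozen cells (log2 0.40, SE 0.10, edgeR adjusted p = 0.00551) and 1.64-fold against fresh cells (log2 0.71, SE 0.09, edgeR adjusted p = 4.41e-06). COL5A3, a further type V chain, had 10.7, 9.51 and 9.44 CPM in osmolyte-frozen, 6.60 and 4.73 CPM in DMSO-frozen and 5.55, 3.55 and 6.11 CPM in fresh libraries. COL11A2, a chain of the type XI collagen of cartilage, had 9.15, 6.48 and 6.48 CPM in osmolyte-frozen, 3.80 and 3.47 CPM in DMSO-frozen and 3.40, 3.23 and 2.96 CPM in fresh libraries. For both, every osmolyte-frozen library lay above the other 5. Against DMSO-frozen cells COL5A3 rose 1.75-fold (log2 0.81, SE 0.20, edgeR adjusted p = 0.00646) and COL11A2 2.02-fold (log2 1.02, SE 0.18, edgeR adjusted p = 3.82e-04). Against fresh cells they rose 1.95-fold and 2.30-fold (edgeR adjusted p = 4.72e-04 and 1.04e-05). Without the 0 h DMSO-frozen library the calls against DMSO-frozen cells were lost for COL27A1 (log2 0.23, edgeR adjusted p = 0.172) and COL5A3 (log2 0.58, edgeR adjusted p = 0.119).

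The remaining fibrillar genes were weakly expressed. COL11A1, the partner of COL11A2, was called higher in osmolyte-frozen against both other groups at no more than 5.24 CPM in any library, and its call against DMSO-frozen cells (log2 0.73, SE 0.26) was lost without SMC (edgeR adjusted p = 0.147), SGC (0.0749), either DMSO-frozen library (0.0761 without 1 h, 0.287 without 0 h) or fresh 0 h (0.0530). COL24A1 was not called and did not exceed 1.37 CPM. COL2A1, picked out after its values were seen, had 19.1, 3.22 and 4.18 CPM in osmolyte-frozen, 18.2 and 9.74 CPM in DMSO-frozen and 15.9, 13.8 and 16.3 CPM in fresh libraries. The SMC library was the highest of the 8 while SGC and SGI were the lowest, and no comparison called it (log2 change against DMSO-frozen cells -0.67, SE 0.82).

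Among FACIT collagens, which sit on the surface of fibrils and link them to other matrix, changes went both ways. Against DMSO-frozen cells 3 of 8 rose in osmolyte-frozen cells (COL16A1, COL9A3 and COL21A1) and 2 fell (COL12A1 and COL14A1). Over all genes tested 13.6% were higher and 16.5% lower in that comparison. Against fresh cells 4 rose and 0 fell, where 19.1% of all genes were higher and 21% lower. COL12A1, the most abundant of the class by RPKM, had 1052, 968 and 861 CPM in osmolyte-frozen, 1508 and 1403 CPM in DMSO-frozen and 1271, 1194 and 915 CPM in fresh libraries. The DMSO-frozen libraries lay above the other 6, and the osmolyte-frozen and fresh ones overlapped. It fell 1.52-fold against DMSO-frozen cells (log2 -0.60, SE 0.12, edgeR adjusted p = 0.00226), while against fresh cells the log2 change was -0.23 (SE 0.11, edgeR adjusted p = 0.111). COL16A1 had 589.9, 598.7 and 568 CPM in osmolyte-frozen, 457 and 404 CPM in DMSO-frozen and 375, 306 and 340.4 CPM in fresh libraries. The groups stood in steps with no overlap, fresh lowest. It rose 1.36-fold against DMSO-frozen cells (log2 0.44, SE 0.09, edgeR adjusted p = 0.00147) and 1.72-fold against fresh cells (log2 0.78, SE 0.08, edgeR adjusted p = 6.28e-07). Without the 0 h DMSO-frozen library the difference from DMSO-frozen cells had a log2 change of 0.36 and an edgeR adjusted p of 0.0538.

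COL14A1 was highest after freezing in DMSO. It had 4.94, 4.02 and 3.61 CPM in osmolyte-frozen, 6.99 and 6.07 CPM in DMSO-frozen and 3.98, 2.68 and 2.04 CPM in fresh libraries. Both DMSO-frozen libraries lay above the other 6. It fell 1.56-fold in osmolyte-frozen against DMSO-frozen cells (log2 -0.64, SE 0.22, edgeR adjusted p = 0.0335) and rose 2.24-fold in DMSO-frozen against fresh cells (log2 1.17, SE 0.22, edgeR adjusted p = 0.00802). The first call was lost without SGC (log2 -0.61, edgeR adjusted p = 0.0949), SGI (-0.54, 0.123), DMSO 1 h (-0.54, 0.198) or DMSO 0 h (-0.74, 0.0959). The second was lost without DMSO 1 h (log2 1.06, edgeR adjusted p = 0.134) or DMSO 0 h (1.27, 0.0629).

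COL9A3, a chain of the type IX collagen of cartilage, had 7.73, 5.36 and 4.70 CPM in osmolyte-frozen, 3.19 and 2.45 CPM in DMSO-frozen and 2.82, 2.68 and 3.25 CPM in fresh libraries. COL21A1 had 6.36, 5.0 and 4.0 CPM in osmolyte-frozen, 2.84 and 2.21 CPM in DMSO-frozen and 1.83, 1.82 and 1.07 CPM in fresh libraries. For both, the osmolyte-frozen libraries lay above the rest, with SMC highest. Against DMSO-frozen cells COL9A3 rose 2.10-fold (log2 1.07, SE 0.21, edgeR adjusted p = 0.00114) and COL21A1 2.03-fold (log2 1.02, SE 0.24, edgeR adjusted p = 0.00428). Against fresh cells they rose 2.03-fold and 3.23-fold (edgeR adjusted p = 3.11e-04 and 1.25e-05). Without the 0 h DMSO-frozen library COL21A1 was not called against DMSO-frozen cells (log2 0.85, edgeR adjusted p = 0.0862). COL9A3 (chromosome 20, 61448414 to 61472511 in hg19) overlaps TCFL5 only from base 61472467 on. TCFL5 had 4944 counts over all libraries against 1420 for COL9A3. Since the strand setting is not given in the sources used here, their reads cannot be told apart in that stretch. COL22A1, at no more than 1.76 CPM, rose against fresh cells (log2 1.19, SE 0.40, edgeR adjusted p = 0.0267), a call lost without SMC (log2 1.12, edgeR adjusted p = 0.0673), SGI (1.16, 0.0759), fresh 1 h DMSO (1.21, 0.0603) or fresh 1 h medium (0.75, 0.0571). COL9A2, at 12.2 to 17.3 CPM, and COL20A1, at up to 0.832 CPM, were not called.

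The 6 chains of type IV collagen lie in 3 pairs of neighbouring genes. COL4A1 and COL4A2 encode the chains found in nearly all basement membranes, and in hg19 they lie 134 bases apart on chromosome 13. COL4A1 had 2836, 2496 and 2234 CPM in osmolyte-frozen, 2723 and 2621 CPM in DMSO-frozen and 2147, 2368 and 2087 CPM in fresh libraries. Osmolyte-frozen values overlapped both other groups. COL4A1 was not called against DMSO-frozen cells (log2 -0.08, SE 0.09) or fresh cells (0.20, SE 0.08), and COL4A2 gave -0.04 (SE 0.09) and 0.11 (SE 0.08). Neither gene of this pair, whose shared promoter region is shown above, was called in any of the 3 comparisons.

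COL4A5 and COL4A6, whose chains occur together in basement membranes of smooth muscle and skin, lie 369 bases apart on chromosome X in the coordinates of the files (hg19). COL4A6 (107398837 to 107682704) had 38.7, 36.1 and 33.5 CPM in osmolyte-frozen, 64.2 and 62.5 CPM in DMSO-frozen and 86.2, 75.9 and 70.4 CPM in fresh libraries. The 3 groups did not overlap and osmolyte-frozen was lowest. It fell 1.75-fold against DMSO-frozen cells (log2 -0.81, SE 0.09, edgeR adjusted p = 5.24e-06) and 2.15-fold against fresh cells (log2 -1.10, SE 0.08, edgeR adjusted p = 1.16e-08). Its neighbour COL4A5 averaged 435 ± 49.3 CPM in osmolyte-frozen (SD, n = 3), 521 ± 21.2 CPM in DMSO-frozen (SD, n = 2) and 481 ± 69.5 CPM in fresh cells (SD, n = 3), with log2 changes of -0.26 (SE 0.11, edgeR adjusted p = 0.0960) and -0.15 (SE 0.10, edgeR adjusted p = 0.272) in osmolyte-frozen against DMSO-frozen and fresh cells. COL4A3 and COL4A4, best known from the kidney glomerulus and 5 bases apart on chromosome 2 in those coordinates, were weak, at no more than 1.37 and 5.28 CPM. Both were called higher in osmolyte-frozen cells, by 1.10 (SE 0.35) and 0.72 (SE 0.26) on the log2 scale against DMSO-frozen and by 1.13 (SE 0.31) and 0.98 (SE 0.24) against fresh cells. Against DMSO-frozen cells the COL4A3 call was lost without SMC (log2 1.03, edgeR adjusted p = 0.0511), SGI (1.07, 0.0592), DMSO 1 h (1.07, 0.112) or DMSO 0 h (1.13, 0.124). The COL4A4 call was lost without SMC (log2 0.36, edgeR adjusted p = 0.247), DMSO 1 h (0.61, 0.232), DMSO 0 h (0.85, 0.135) or fresh 0 h (0.69, 0.0605).

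Type VI collagen, the beaded filament around stromal cells, is built from the chains of COL6A1, COL6A2 and COL6A3 in most tissues. COL6A3 (chromosome 2, 238232655 to 238322850) had 2238, 2159 and 2281 CPM in osmolyte-frozen, 4593 and 4242 CPM in DMSO-frozen and 5138, 4638 and 4182 CPM in fresh libraries. The 3 osmolyte-frozen libraries lay close together and below the 5 others. It fell 1.98-fold against DMSO-frozen cells (log2 -0.99, SE 0.09, edgeR adjusted p = 2.98e-07) and 2.09-fold against fresh cells (log2 -1.06, SE 0.08, edgeR adjusted p = 9.58e-09). COL6A2 had 4301, 3644 and 3378 CPM in osmolyte-frozen, 3477 and 2740 CPM in DMSO-frozen and 3207, 2906 and 3363 CPM in fresh libraries. The osmolyte-frozen libraries overlapped the DMSO-frozen ones and lay above the fresh ones. It was not called against DMSO-frozen (log2 0.28, SE 0.11, edgeR adjusted p = 0.0773) or fresh cells (log2 0.26, SE 0.10, edgeR adjusted p = 0.0558). COL6A1 averaged 3201 ± 277 CPM in osmolyte-frozen (SD, n = 3), 3118 ± 478 CPM in DMSO-frozen (SD, n = 2) and 3040 ± 166 CPM in fresh cells (SD, n = 3), with log2 changes of 0.04 (SE 0.10) and 0.07 (SE 0.09) in osmolyte-frozen against DMSO-frozen and fresh cells.

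The network collagens COL8A1 and COL8A2 encode the chains of type VIII collagen, found in vessel walls and under the corneal endothelium. COL8A2 (chromosome 1, 36560844 to 36565850) had 52.8, 48.7 and 43.5 CPM in osmolyte-frozen, 26.7 and 23.9 CPM in DMSO-frozen and 17.2, 14.5 and 14.9 CPM in fresh libraries. The groups stood in 3 steps with no overlap. It was the 1 collagen gene called in all 3 comparisons, rising 1.91-fold in osmolyte-frozen against DMSO-frozen cells (log2 0.94, SE 0.10, edgeR adjusted p = 4.48e-06), 3.11-fold in osmolyte-frozen against fresh cells (log2 1.64, SE 0.09, edgeR adjusted p = 2.71e-10) and 1.63-fold in DMSO-frozen against fresh cells (log2 0.70, SE 0.10, edgeR adjusted p = 7.62e-04). COL8A1 had 471, 409 and 387 CPM in osmolyte-frozen, 429 and 413 CPM in DMSO-frozen and 281, 304 and 239 CPM in fresh libraries. The frozen libraries overlapped each other and all lay above the fresh ones. It rose 1.54-fold in osmolyte-frozen against fresh cells (log2 0.62, SE 0.09, edgeR adjusted p = 3.88e-05) and 1.53-fold in DMSO-frozen against fresh cells (log2 0.62, SE 0.10, edgeR adjusted p = 0.00222), the DMSO-frozen call being lost without DMSO 1 h (log2 0.59, edgeR adjusted p = 0.0624). Osmolyte-frozen against DMSO-frozen cells gave a COL8A1 log2 change of 0.00 with an SE of 0.10.

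COL7A1, the anchoring fibril collagen that ties epithelial basement membranes to the tissue below, had 78.2, 66.7 and 73.6 CPM in osmolyte-frozen, 57.8 and 54.0 CPM in DMSO-frozen and 55.9, 54.8 and 61.2 CPM in fresh libraries. The osmolyte-frozen libraries lay above the 5 others. It rose 1.30-fold against DMSO-frozen cells (log2 0.38, SE 0.09, edgeR adjusted p = 0.00334) and 1.27-fold against fresh cells (log2 0.35, SE 0.08, edgeR adjusted p = 0.00175). COL18A1, a multiplexin whose cleavage yields endostatin, had 177, 157 and 148 CPM in osmolyte-frozen, 127 and 99.5 CPM in DMSO-frozen and 107, 97.3 and 105 CPM in fresh libraries. Again the osmolyte-frozen libraries lay above the rest. It rose 1.42-fold against DMSO-frozen cells (log2 0.51, SE 0.10, edgeR adjusted p = 0.00139) and 1.56-fold against fresh cells (log2 0.64, SE 0.09, edgeR adjusted p = 2.61e-05). Without the 0 h DMSO-frozen library the calls against DMSO-frozen cells were lost for COL7A1 (log2 0.33, edgeR adjusted p = 0.0629) and COL18A1 (log2 0.34, edgeR adjusted p = 0.0585). COL18A1 overlaps its antisense gene COL18A1-AS1, which had 174 counts over all libraries against 45254. COL15A1, the other multiplexin, did not exceed 0.957 CPM and rose against fresh cells (log2 1.24, SE 0.35, edgeR adjusted p = 0.00820).

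Of 3 transmembrane collagens, COL13A1, found at neuromuscular junctions, was the most abundant by RPKM. It had 13.0, 12.0 and 13.5 CPM in osmolyte-frozen, 16.6 and 14.7 CPM in DMSO-frozen and 15.9, 15.3 and 19.6 CPM in fresh libraries. The osmolyte-frozen libraries were the lowest 3. It fell 1.32-fold against fresh cells (log2 -0.40, SE 0.11, edgeR adjusted p = 0.00611), and against DMSO-frozen cells the log2 change was -0.29 (SE 0.12, edgeR adjusted p = 0.0750). COL25A1, at no more than 1.71 CPM, rose 4.06-fold against fresh cells (log2 2.02, SE 0.40, edgeR adjusted p = 5.59e-04). This fold rests on few counts, with 0.313, 0.546 and 0.146 CPM in fresh libraries. COL17A1, a hemidesmosome collagen of skin, did not exceed 2.04 CPM and was not called. COL28A1 had 0.392, 0.0893 and 0.305 CPM in osmolyte-frozen, 0.350 and 0.670 CPM in DMSO-frozen and 0.447, 0.637 and 0.631 CPM in fresh libraries and was not called, with every value under 1 CPM.

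**Figure D3:**
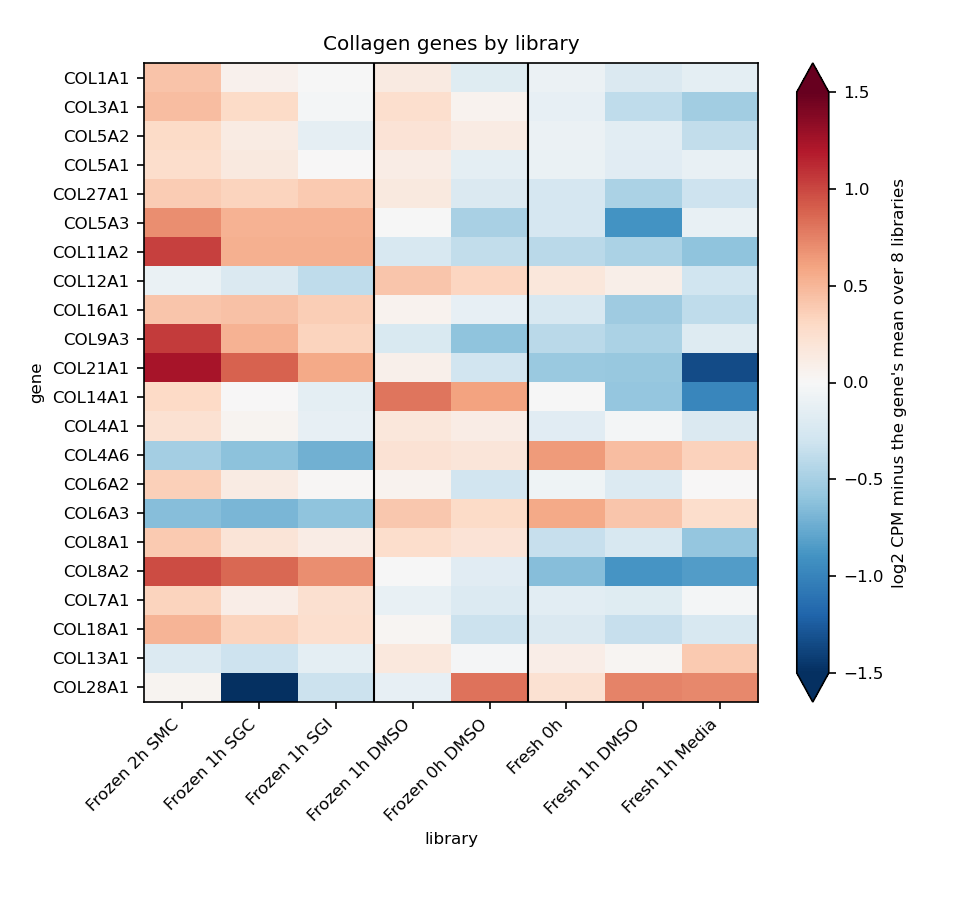
Colour gives the log2 CPM of each of 22 collagen genes minus that gene's mean over the 8 libraries, with libraries in columns and vertical lines between osmolyte-frozen, DMSO-frozen and fresh. COL8A2 steps down over the 3 groups (52.8 to 43.5, 26.7 to 23.9 and 17.2 to 14.5 CPM), and COL6A3 is low in the 3 osmolyte-frozen libraries (2159 to 2281 CPM).

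Ratios between collagen genes were taken within each library from RPKM, in most cases between chains of one collagen type. COL6A3 over COL6A1 was 0.252, 0.274 and 0.302 in osmolyte-frozen, 0.525 and 0.603 in DMSO-frozen and 0.639, 0.642 and 0.535 in fresh libraries. Osmolyte-frozen libraries lay apart from the other 5, at a mean of 0.276 ± 0.0254 (SD, n = 3) against 0.564 ± 0.0549 (SD, n = 2) in DMSO-frozen and 0.605 ± 0.0611 (SD, n = 3) in fresh cells. COL6A2 over COL6A1 averaged 1.14 ± 0.0445 in osmolyte-frozen, 0.969 ± 0.0141 in DMSO-frozen and 1.01 ± 0.0419 in fresh cells, again without overlap between osmolyte-frozen and the rest. COL1A1 over COL1A2 averaged 1.43 ± 0.0792 in osmolyte-frozen (SD, n = 3), 1.14 ± 0.0724 in DMSO-frozen (SD, n = 2) and 1.22 ± 0.0734 in fresh cells (SD, n = 3), and its lowest osmolyte-frozen library, SGC at 1.35, lay above the highest other one, fresh 1 h medium at 1.30. COL8A2 over COL8A1 averaged 0.0797 in osmolyte-frozen, 0.0417 in DMSO-frozen and 0.0397 in fresh cells. COL4A6 over COL4A5 averaged 0.0797 in osmolyte-frozen, 0.116 in DMSO-frozen and 0.155 in fresh cells. COL12A1 and COL16A1 encode different collagen types and were set side by side as FACIT genes, and for COL12A1 over COL16A1 the means were 0.790 in osmolyte-frozen, 1.63 in DMSO-frozen and 1.60 in fresh cells. By contrast, COL4A2 over COL4A1 averaged 0.940 ± 0.0158 in osmolyte-frozen, 0.908 ± 0.0550 in DMSO-frozen and 1.00 ± 0.0965 in fresh cells, and the 3 groups overlapped. For COL5A2 over COL5A1 the means were 1.19, 1.40 and 1.17 in the same order, and osmolyte-frozen and fresh libraries overlapped. For COL3A1 over COL1A1 they were 0.213, 0.229 and 0.177, and osmolyte-frozen and DMSO-frozen libraries overlapped. No test was run on these ratios.

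**Figure D4:**
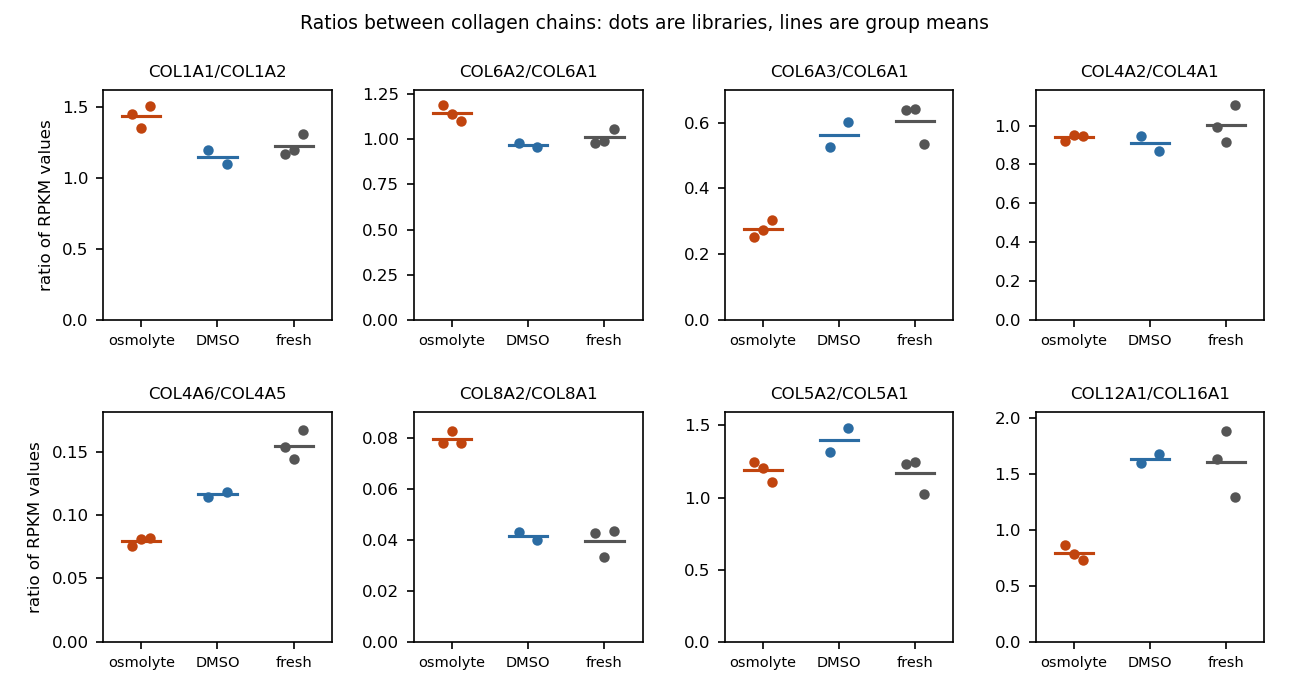
Dots are ratios of the authors' RPKM values between collagen genes in each library and lines are group means, for osmolyte-frozen, DMSO-frozen and fresh cells, on axes from 0. COL6A3/COL6A1 averages 0.276 in osmolyte-frozen, 0.564 in DMSO-frozen and 0.605 in fresh cells, while COL4A2/COL4A1 overlaps between groups.

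Gene length moved with the differences over all genes. In osmolyte-frozen against DMSO-frozen cells the median log2 change was 0.20 for the 2404 genes shorter than 1500 bases and -0.15 for the 603 genes of 9000 bases or more. Spearman's rho between length and log2 change was -0.27 across 15564 genes and -0.08 across 37 collagen genes, which all share the same 8 libraries. COL6A3 and COL12A1, which fell, are 10696 and 11579 bases long, while COL7A1 and COL4A4, which rose, are 9169 and 10341 bases long. In osmolyte-frozen against fresh cells rho was -0.12 over all genes and -0.01 over the collagen genes. In DMSO-frozen against fresh cells it was 0.26 and 0.13. The part of length in these values was not tested.

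Single libraries were also set side by side, with no test. The SMC library, held for 2 h, was above SGC in 35 of 37 collagen genes and above SGI in 33, where 54.3% and 54.6% of all genes were higher, with median log2 differences of 0.23 and 0.31 over the collagen genes. Solution and holding time cannot be told apart in this library. The widest gap between SMC and SGC was in COL2A1, at a log2 ratio of 2.56 with a prior count of 2. SGC lay above SGI in 24 of 37 (all genes 51.1%), with a median log2 difference of 0.08 over the collagen genes. DMSO-frozen cells at 1 h were above those at 0 h in 31 of 37 (all genes 48.9%) and above fresh cells after 1 h with DMSO in 32 of 37 (49.6%). DMSO-frozen cells at 0 h were above fresh cells at 0 h in 17 of 37 (49.7%). Between DMSO-frozen and fresh cells COL14A1 differed by 1.37 on the log2 scale at 1 h with DMSO and by 0.60 at 0 h, and COL8A2 by 0.88 and 0.47. Fresh cells after 1 h with DMSO were above fresh cells at 0 h in 8 of 37 (49.9%), with a median log2 difference of -0.13 over the collagen genes. Fresh cells after 1 h in medium were above fresh cells at 0 h in 12 of 37 (50.3%), with a median of -0.14. Fresh cells after 1 h with DMSO were above those in medium in 19 of 37 (47.5%), with a median of 0.01.

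Genes that act on collagen were counted from 5 lists. Beside each count against DMSO-frozen cells stands the share over all genes tested, 30.1% called, 13.6% higher and 16.5% lower. Of 24 genes of collagen synthesis, 2 rose and 7 fell in osmolyte-frozen against DMSO-frozen cells, with a median log2 change of -0.08. SEC23A and SEC24D, coat proteins of the vesicles that carry procollagen out of the endoplasmic reticulum, fell 1.44-fold and 1.29-fold (edgeR adjusted p = 2.01e-04 and 0.00203). PLOD2, a lysyl hydroxylase, had 735, 730 and 638 CPM in osmolyte-frozen and 912 and 959.9 CPM in DMSO-frozen libraries, a 1.34-fold fall (edgeR adjusted p = 0.00147). FKBP14, a chaperone of collagen folding, fell 1.45-fold, LEPREL1, a prolyl hydroxylase, fell 1.29-fold, and LEPRE1, its relative, rose 1.19-fold.

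Of 13 measured genes of collagen maturation, 4 rose and 3 fell. The procollagen proteases went apart. ADAMTS14, which removes amino-terminal propeptides, had 136, 139 and 136 CPM in osmolyte-frozen, 60.5 and 48.3 CPM in DMSO-frozen and 41.7, 35.7 and 39.7 CPM in fresh libraries. It rose 2.52-fold against DMSO-frozen cells (log2 1.33, SE 0.10, edgeR adjusted p = 5.30e-08), whereas ADAMTS2 and ADAMTS3, related enzymes, fell 1.32-fold and 1.38-fold. BMP1, which removes carboxy-terminal propeptides, rose 1.57-fold and LOXL4, a cross-linking lysyl oxidase, 1.63-fold, while PCOLCE2, an enhancer of BMP1, fell 1.48-fold (edgeR adjusted p = 5.15e-05, 3.16e-05 and 0.00832).

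Collagen receptors numbered 11, of which 2 rose and 4 fell. ITGA11, an integrin chain that binds fibrillar collagen, had 1543, 1477 and 1286 CPM in osmolyte-frozen, 951 and 831 CPM in DMSO-frozen and 733, 588 and 593 CPM in fresh libraries, with no overlap. It rose 1.61-fold against DMSO-frozen cells (edgeR adjusted p = 1.92e-04), while its partner ITGB1 fell 1.47-fold, ITGA2 1.96-fold, the receptor kinase DDR2 1.72-fold and GPR56, a receptor known to bind type III collagen, 2.44-fold (edgeR adjusted p = 2.27e-04, 6.80e-05, 0.00592 and 3.09e-07). Of 11 measured genes of collagen breakdown, 4 rose and 2 fell. MMP14, a membrane-bound collagenase, rose 1.27-fold, CTSK, a collagen-degrading cathepsin, 1.54-fold, FAP, a gelatin-cutting protease, 1.39-fold and TIMP3, a protease inhibitor, 1.31-fold, and MMP16 fell 2.22-fold and CTSB 1.26-fold. Of 20 measured regulators of collagen genes, 2 rose and 5 fell. TGFBR2 and SMAD3 of the TGF-beta pathway fell 1.58-fold and 1.57-fold and TGFBR1, the partner receptor, rose 1.26-fold (edgeR adjusted p = 1.02e-04, 2.03e-05 and 0.0145). SP1, a factor that binds GC-rich promoters, fell 1.27-fold, PRRX1 1.23-fold, and TWIST1 rose 1.33-fold.

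Several of these calls against DMSO-frozen cells were lost when a library was left out, in some with little change in the fold. Without DMSO 1 h or 0 h the log2 change was -0.29 and -0.30 for PRRX1, against -0.30 with all libraries, 0.32 and 0.34 for TGFBR1, against 0.33, and -0.36 and -0.32 for SP1, against -0.34. Without DMSO 0 h the edgeR adjusted p was 0.330 for LEPRE1, 0.101 for PCOLCE2, 0.241 for ADAMTS3, 0.0512 for TIMP3, 0.146 for MMP14, 0.125 for SP1, 0.0902 for TGFBR1 and 0.0759 for PRRX1. Without DMSO 1 h it was 0.0637 for LEPRE1, 0.123 for ADAMTS3, 0.0509 for ADAMTS2, 0.0536 for DDR2, 0.0558 for CTSB, 0.0686 for SP1, 0.0882 for TGFBR1 and 0.0693 for PRRX1. The LEPRE1 call was also lost with no filter (edgeR adjusted p = 0.0709) or without SMC (0.102), SGC (0.140), fresh 0 h (0.0850) or fresh 1 h DMSO (0.0517). The ADAMTS3 call was lost without SGC (edgeR adjusted p = 0.133), SGI (0.138) or fresh 1 h DMSO (0.0540), that of SP1 without SGC (0.0503) or SGI (0.0526), and that of TGFBR1 without SMC (0.0520).

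Against fresh cells, osmolyte-frozen cells had 8 higher and 6 lower of the synthesis genes, 6 and 4 of maturation, 4 and 4 of receptors, 6 and 3 of breakdown and 2 and 9 of regulators. Over all genes tested 19.1% were higher and 21% lower in that comparison. In DMSO-frozen against fresh cells 1 synthesis gene was higher and 0 lower, against 2 and 0 of maturation, 1 and 1 of receptors, 3 and 0 of breakdown and 1 and 2 of regulators. Here 1.25% of all genes tested were higher and 0.617% lower.

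**Figure D5:**
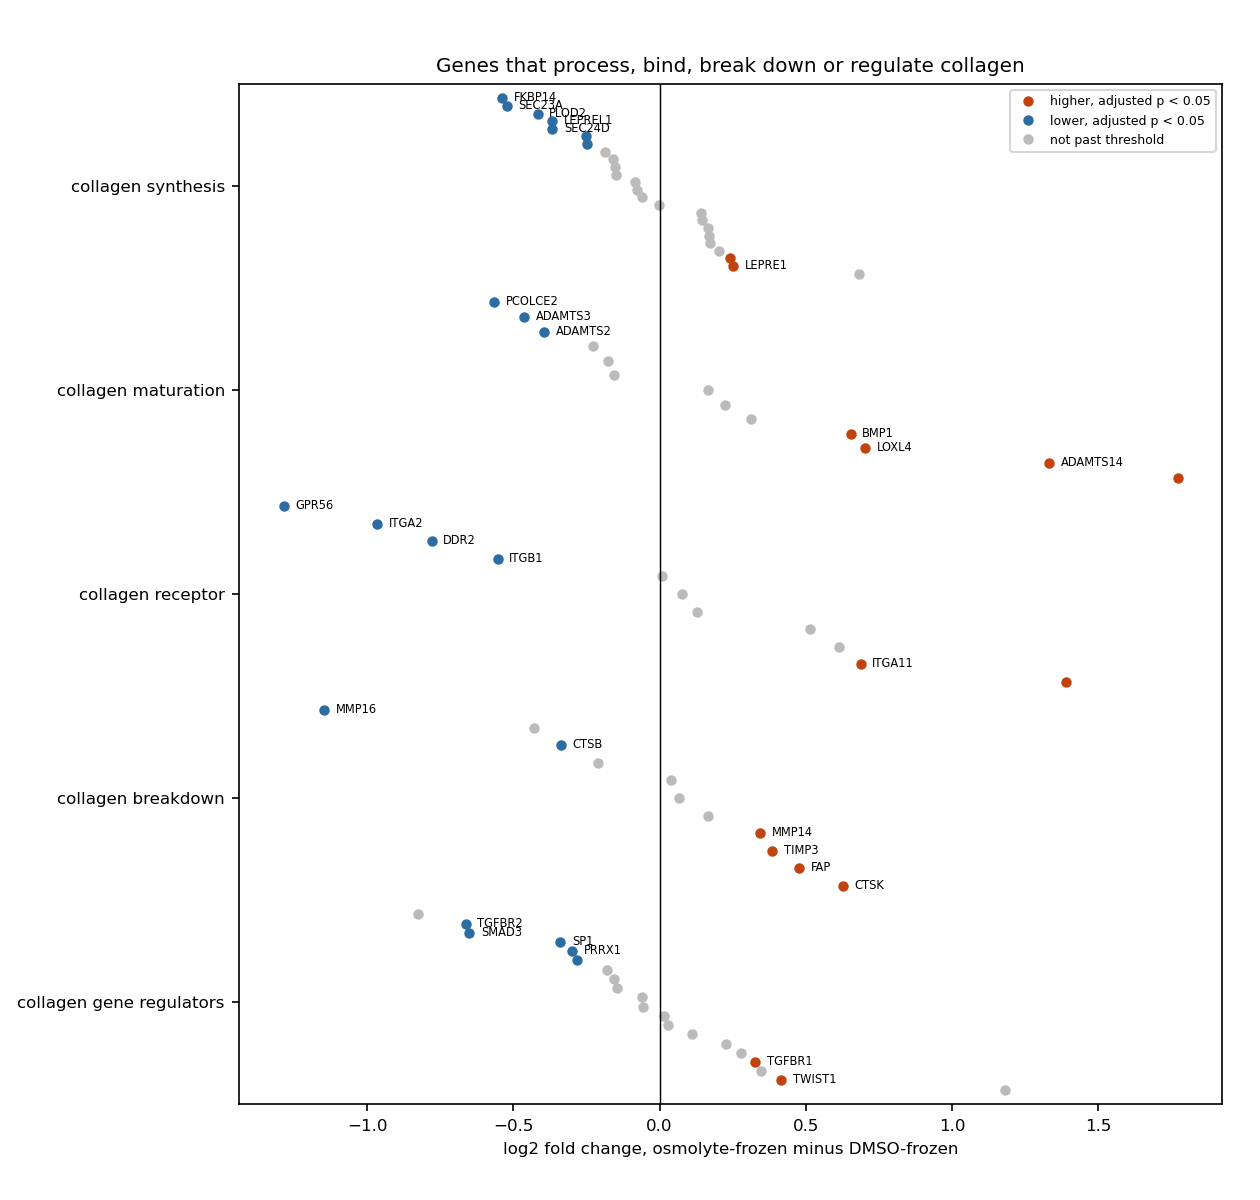
Dots are log2 fold changes of osmolyte-frozen minus DMSO-frozen cells for genes of 5 lists, red where higher and blue where lower at an edgeR adjusted p under 0.05 and grey otherwise, with named genes labelled. ADAMTS14 (1.33) and ITGA11 (0.69) lie on the higher side, and GPR56 (-1.28) and MMP16 (-1.15) on the lower side.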

How the data were processed

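Per the file headers, the table deposited by the authors pairs a count with an RPKM value per gene in every library. The counts are whole numbers per gene as the authors deposited them, with no normalisation. Of all counts, 0 are odd, for a reason that no source gives. The RPKM values were made by the authors from a gene length and a library total larger than the sum of the counts. Tools named in the submitters' processing notes are CASAVA 1.9, TopHat (written there as version 12.0.6) and HTSeq, on hg19. For the strand setting, annotation release and counting of mates, nothing is given in the sources used here. Of 23398 entries, identical repeats among 49 repeated identifiers were merged, leaving 23354 genes.

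Tests on counts used edgeR 4.0.16 under R 4.3.3. The filter filterByExpr, grouped by fresh or frozen state, kept 15564 genes, and libraries were scaled by TMM (trimmed mean of M-values). One fit of 3 groups (glmQLFit, robust, glmQLFTest) used all 8 libraries, with 5 residual degrees of freedom and a biological coefficient of variation of 0.0971. P-values were adjusted by Benjamini-Hochberg over all genes at 0.05. Levels are TMM-scaled CPM, as mean ± SD where given. Levels of different genes were compared by RPKM, save in marker sums and in counts or their shares, which take no account of gene length. The script was tested on simulated data. Single libraries were compared by log2 CPM with a prior count of 2.

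The collagen genes and the 5 lists were chosen with earlier results of these data known. Values in every library were given for collagen genes past the threshold in any comparison with at least 5 CPM on the higher side and for the most abundant gene of each class by RPKM, 22 in all. The other 15 were given by mean, range, highest value or log2 change, save COL2A1, which was also given in every library. From each list up to 6 called genes of the largest change in osmolyte-frozen against DMSO-frozen cells with at least 5 CPM were named. Alternatives were DESeq2 1.42.0, library totals alone, no filter, counts halved, only the libraries compared, and each library left out in turn.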

Additional observations from a re-analysis of the deposited data

How the results depend on the processing

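Each comparison was rerun with library totals alone, DESeq2, no filter, counts halved and only the libraries compared, and with each library left out. In osmolyte-frozen against DMSO-frozen cells 17 to 19 collagen genes were called under the other settings and 6 to 19 with a library left out (16 with all libraries, 6 without DMSO-frozen 0 h), while 2136 to 5254 of all genes were called (4684 with all libraries). In osmolyte-frozen against fresh cells the counts were 24 to 26 and 20 to 24 (23 with all libraries), with 5001 to 6375 of all genes (6236). In DMSO-frozen against fresh cells, where 3 were called, no filter gave 6, DESeq2 7 and leaving out a library 1 to 5, with 91 to 488 of all genes (291). None of the collagen genes called in a comparison changed sign there under the 13 settings run, while 7 of 21 not called in osmolyte-frozen against DMSO-frozen, 2 of 14 in osmolyte-frozen against fresh and 16 of 34 in DMSO-frozen against fresh cells did under at least 1. In osmolyte-frozen against DMSO-frozen cells COL8A1 (0.00 on the log2 scale with all libraries) gave -0.0289 with no filter, -9e-04 with only the libraries compared, -0.0045 with DESeq2 and -0.0786 to 0.0644 with a library left out. COL4A2 gave 0.0149 with library totals and -0.12 to 0.0571 with a library left out, COL3A1 -0.0198 to 0.22, COL5A2 -0.17 to 0.0417 and COL6A1 -0.11 to 0.20. The causes were not tested. The collagen share of TMM-scaled library size was 9.57% in osmolyte-frozen, 9.44% in DMSO-frozen and 8.33% in fresh cells. No paired analysis was possible because the replicate numbers were given in accession order and the labels carry none. Genes under about 1 CPM rest on few counts, and with 2 DMSO-frozen libraries 1 of them can decide a call.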
